A study of Homo sapiens with 12 samples.

Results

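The 48 genes described here encode the enzymes that write and erase methyl groups on histones and DNA, together with the proteins that bind the methylated marks in heterochromatin. They were chosen by gene symbol, and each of the 48 symbols matched 1 of the 60671 Ensembl identifiers in the deposited gene count table. All 48 passed the filter of more than 1 CPM (the count scaled to the total gene count of the library) in at least 3 libraries, which 13236 genes passed in all. RNA was sequenced from BJ-5ta cells, a human fibroblast line immortalized with telomerase, in 4 groups of 3 libraries. Wild-type (WT) cells were grown in RPMI medium with 10% serum (WT_10, libraries 1 to 3) or kept for 10 days in 0.1% serum, which makes fibroblasts quiescent (WT_01, libraries 7 to 9). ΔLEO1 cells, in which LEO1 was deleted with CRISPR/Cas9, were grown in 10% serum (Leo1_10, libraries 4 to 6) or kept in 0.1% serum in the same way (Leo1_01, libraries 10 to 12). The ΔLEO1 cells were 1 clone, so the effect of the deletion and any other property of that clone cannot be told apart.

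Methylation of lysine 9 and lysine 20 of histone H3 and H4 and of cytosine in DNA marks silent chromatin, and methylation of lysine 27 of H3 by the polycomb complex PRC2 silences developmental genes. Heterochromatin protein 1 (HP1), made from CBX1, CBX3 and CBX5, binds methylated lysine 9. Methylation of lysine 4, 36 and 79 of H3 accompanies transcription, and LEO1 is a subunit of the PAF1 complex, which travels with RNA polymerase II and is needed for several of those marks. The study asks how LEO1 affects quiescence, and the question asked here is which of the enzymes and readers of these marks differed in mRNA level between the groups.

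Each library held between 26240632 and 45315560 gene counts and between 244023 and 1090393 counts of the ERCC spike-in transcripts, which are synthetic RNAs added in the same dilution to each sample. LEO1 itself was at 23.3, 23.9 and 23.3 CPM in WT_10 and at 29.7, 30.4 and 20.4 CPM in WT_01. In the ΔLEO1 cells it was at 1.37, 0.794 and 1.24 CPM in 10% serum and at 0.661, 1.44 and 1.39 CPM in 0.1% serum. The labels therefore matched the targeted gene in all 12 libraries. The labels do not say whether the 3 libraries of a group came from separate cultures, so p-values measure only the spread between these libraries. Within each group the 2 lowest-numbered libraries were alike (chi-square per gene of 3.04 to 12.2), and the highest-numbered library stood apart from both (66.8 to 145). Leaving out 1 of the 2 alike libraries keeps the other in the fit. A call that holds with each library left out is therefore only partly tested. All 8 fibroblast markers had counts in every library and summed to between 51900 and 75571 CPM. The 6 epithelial markers summed to between 167 and 1141 CPM, with higher sums in ΔLEO1 than in WT libraries of the same serum, and the 8 endothelial and blood markers summed to between 0.612 and 7.65 CPM and were also higher in ΔLEO1 libraries. No marker of these lists was at 0 in all 12 libraries, and their part in the results was not tested.

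On the ERCC scale a gene's counts are divided by the spike-in counts, so that a change in the amount of RNA relative to the spike-in is kept. The study's methods do not say whether the spike-in was added per cell or per amount of RNA. On the gene scale the counts are scaled by TMM (trimmed mean of M values) factors computed on the genes, so that a fold change is relative to the other genes of the library. The median log2 fold change of the 13236 genes on the ERCC scale was -0.97 in WT cells and -1.05 in ΔLEO1 cells for 0.1% against 10% serum. For ΔLEO1 against WT cells it was 0.35 in 10% serum and 0.27 in 0.1% serum. The latter depended on single libraries: it was -0.27 without library 12, -0.42 without the highest-numbered library of each group, 0.12 without library 9 and 0.58 without library 11. In 10% serum the median was 0.14 without library 3, 0.17 without library 4 and 0.58 without library 1. Gene counts per spike-in count differed within a group as well, at 52.7, 30.0 and 90.7 in Leo1_01. In these bulk samples, fewer cells, less RNA per cell and a different amount of RNA taken for the library cannot be told apart.

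Per kilobase of the longest coding transcript, TRIM28, the corepressor that recruits a lysine 9 methyltransferase to zinc finger repressors, had the highest level of the 48 genes at 103 CPM per kb over the 12 libraries. The HP1 genes CBX3 and CBX1 followed with 75.2 and 36.9 CPM per kb, and the lysine 4 demethylase KDM1A with 35.7 CPM per kb. The lowest levels were those of DNMT3A at 1.82, of the lysine 9 methyltransferase family member SETDB2 at 1.64 and of DNMT3B at 0.411 CPM per kb. The maintenance DNA methyltransferase DNMT1 was at 13.3 CPM per kb, above both of the de novo enzymes DNMT3A and DNMT3B.

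**Figure D1:**
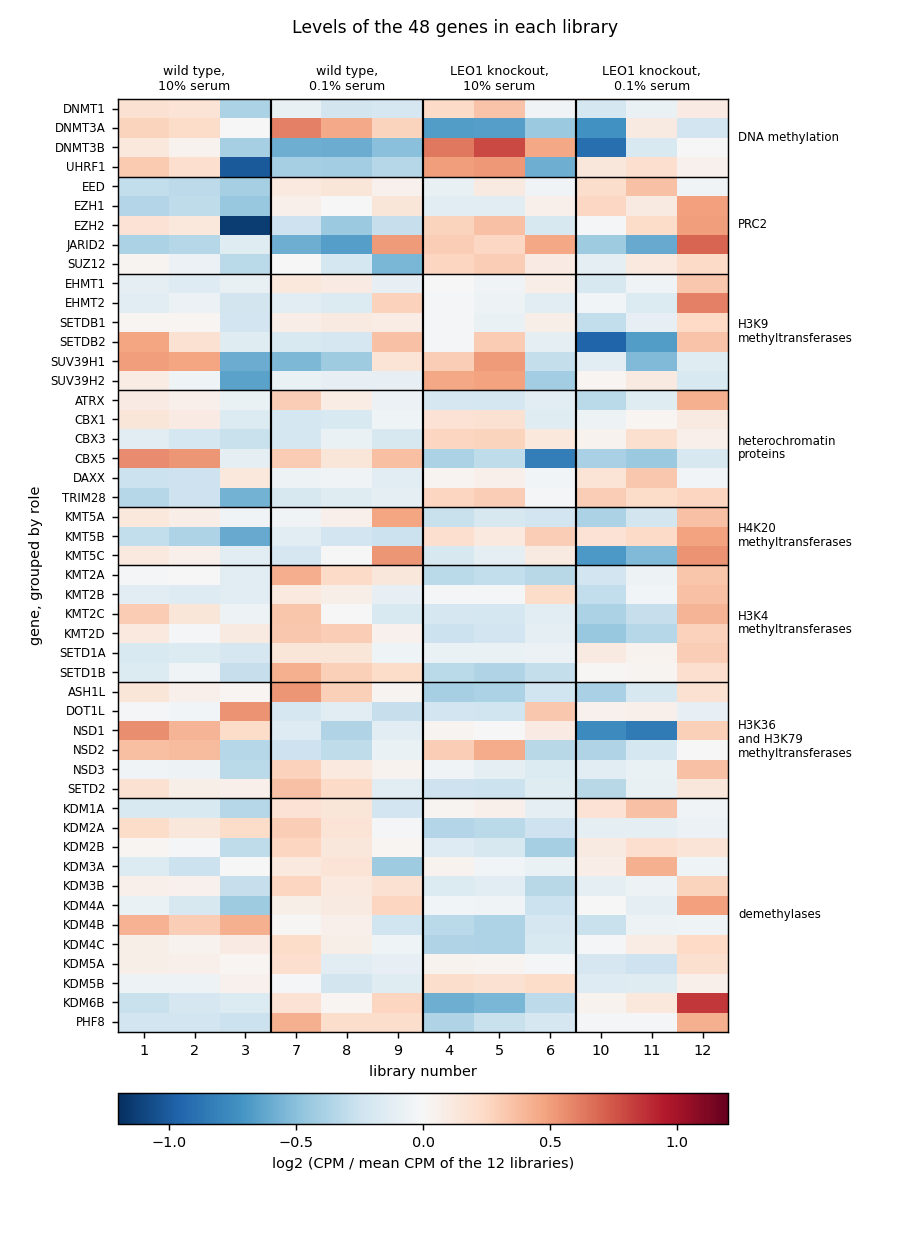
Level of each of the 48 genes (rows, grouped by role) in each of the 12 libraries (columns, grouped by genotype and serum) as log2 of its CPM over its mean CPM in the 12 libraries. CBX5 and DNMT3A are low in the ΔLEO1 libraries, and UHRF1 and EZH2 are lowest in library 3 of WT_10.

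In WT cells, 17 of the 48 genes fell in 0.1% serum on the ERCC scale and none rose (edgeR likelihood ratio test, adjusted p under 0.05 over all genes). The share of all genes called lower in this comparison was 36.1%, and the share called higher was 0.944%. The median of the 48 genes was -0.98 on the log2 scale against -0.97 for all genes, so that as a list they stood where the median gene stood. All 48 fitted values were below 0 on the ERCC scale, whereas on the gene scale 23 were below 0 and 25 above. In 27 of the 48 genes the 3 libraries of WT_01 lay below the 3 of WT_10, and this was so in 53.4% of all genes. None lay above, against 1.16%. The quasi-likelihood test of edgeR called 12 of the 48 lower and none higher, against 27% and 0.831% of all genes.

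The largest fall in WT cells was that of NSD1, a lysine 36 methyltransferase mutated in Sotos syndrome. Its ERCC-scaled counts (counts scaled to the spike-in counts) were 14728, 11072 and 6424 in WT_10 and 3332, 3733 and 2690 in WT_01. The groups did not overlap, and NSD1 was at -1.72 ± 0.45 (SE) on the log2 scale, with an adjusted p of 0.0026. NSD1 also fell relative to the other genes, by 0.70 on the log2 scale (SE 0.23, adjusted p = 0.012), and on the ERCC scale it was the one member that stayed called when any 1 of the 12 libraries was left out. Its adjusted p then reached 0.048 at most. The gene-scale call was lost without library 1 or library 8 (adjusted p up to 0.081). Of the other NSD genes, NSD2 fell on the ERCC scale (log2 fold change -1.51, adjusted p = 0.0081), while NSD3 was at -0.79 (adjusted p = 0.12).

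SUV39H1, a methyltransferase for trimethylation of lysine 9 in pericentric heterochromatin, fell by 1.63 on the log2 ERCC scale (adjusted p = 0.0094). Its ERCC-scaled counts were 1404, 1148 and 361 in WT_10 and 253, 354 and 329 in WT_01, so library 3 of WT_10 lay just above the low-serum libraries. Its close paralog SUV39H2 was at 1034, 783 and 344 in WT_10 and 342, 434 and 268 in WT_01, and did not pass the test (log2 fold change -1.05, adjusted p = 0.074). On the gene scale neither was called in WT cells (log2 fold changes -0.52 and -0.01). Of the other lysine 9 methyltransferases, EHMT1 and EHMT2, which dimethylate lysine 9 in euchromatin, were at -0.87 and -0.96, and SETDB1 was at -0.93, none of them called. Of the SUV39H1 exon bases, 20.3% overlap exons of AC231533.1 on the other strand. For SETDB1 13.4% overlap exons of CERS2 on the other strand, so the counts of both genes are less certain.

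Among the DNA methylation genes, DNMT1, DNMT3B and UHRF1 fell in WT cells on the ERCC scale (log2 fold changes -1.29, -1.61 and -1.50) and DNMT3A was not called (-0.79, adjusted p = 0.14). UHRF1 brings DNMT1 to newly replicated DNA. Of the 58-base stretches of its longest transcript, 24.7% also occur in another annotated gene, so its counts are less certain. DNMT3B was at 245, 193 and 93.9 ERCC-scaled counts in WT_10 and at 55.6, 71.3 and 46.8 in WT_01, with no overlap. None of the 4 was called on the gene scale in WT cells. For UHRF1 the CPM were 47.6, 44.1 and 19.1 in WT_10 and 29.2, 28.8 and 30.3 in WT_01, so the low-serum libraries lay between library 3 and the other WT_10 libraries.

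Some of the 48 genes were low in the same libraries in 10% serum as the proliferation markers, whose part in the results was not tested. The 12 proliferation markers summed to 998, 994 and 322 CPM in WT_10, to 437, 415 and 711 CPM in WT_01, to 1053, 1169 and 621 CPM in Leo1_10 and to 633, 614 and 840 CPM in Leo1_01. In WT_10, 9 members had a CPM in library 3 under 0.75 times the mean of libraries 1 and 2, namely CBX5, DNMT1, DNMT3B, EZH2, NSD2, SETDB2, SUV39H1, SUV39H2 and UHRF1. In Leo1_10, 6 members were under 0.75 times in library 6, and all 6 (CBX5, EZH2, NSD2, SUV39H1, SUV39H2 and UHRF1) were among those 9. EZH2 had the lowest ratio, with 15.8, 15.3 and 6.38 CPM in WT_10. Over 1.25 times were 2 members in library 3 of WT_10 and 1 in library 6 of Leo1_10. In library 9 of WT_01, 3 members were under 0.75 times and 6 over 1.25 times. In library 12 of Leo1_01 none was under 0.75 times and 23 were over 1.25 times. NSD1, for example, was at 46.6, 44.1 and 96.5 CPM in Leo1_01. These ratios were not computed for all genes. Without library 3, 34 of the 48 genes were called lower in WT cells on the ERCC scale, and without library 12, which enters this comparison only through the shared estimate of spread and the set of genes tested, 41 were. Without library 1 or library 7, 1 was called. Of all genes, 7519 of 13196 were called lower without library 3 and 8598 of 13174 without library 12. Without library 1 these were 1178 of 13183 genes, and without library 7 they were 1137 of 13156.

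Promoters from RefSeq (GRCh38.p14, from 250 bases before to 50 after the start) were found for 42 of the 48 genes. The E2F letters TTTCGCGC or TTTGGCGC, read on both strands, stood in 3 of the 42, against 2.02% of the 10210 tested genes with a promoter and 1.15% of all 35116 promoters. All 3 lay at the start site, and they are shown because DNMT1 and EZH2 are among the genes that were low in library 3. CBX5, DNMT3B, NSD2, SETDB2, SUV39H2 and UHRF1 were also low there, and their promoters were searched and held no E2F letters. Whether the letters and the counts are linked was not tested. The capitals mark the letters searched, and each sequence is read along the gene.
DNMT1 (chr19:10194923-10194980, minus strand): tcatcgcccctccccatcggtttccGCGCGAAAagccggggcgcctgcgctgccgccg
EZH2 (chr7:148884258-148884315, minus strand): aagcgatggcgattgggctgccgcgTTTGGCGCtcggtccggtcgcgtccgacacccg
CBX3 (chr7:26201414-26201471, plus strand): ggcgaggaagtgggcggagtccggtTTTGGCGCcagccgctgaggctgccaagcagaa
The CHR letters TTTGAA or TTCGAA stood in 6 of the 42 promoters against 11.3% of tested genes, CCAAT in 16 against 36.8%, and the Sp letters GGGCGG in 29 against 70.4%. CBX3, the third of these genes, was not low in library 3 by the same measure. A match of letters is a description of the sequence.

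PRC2 consists of a catalytic subunit, EZH2 or EZH1, with EED, SUZ12 and accessory proteins such as JARID2. EZH2 and SUZ12 fell in WT cells on the ERCC scale (log2 fold changes -1.33 and -1.19), and EED, EZH1 and JARID2 were not called. EZH1, the other catalytic subunit, was at 22.5, 23.3 and 21.04 CPM in WT_10 and at 30.0, 28.8 and 31.8 CPM in WT_01. The groups did not overlap, and EZH1 rose relative to the other genes (log2 fold change 0.35 ± 0.13, adjusted p = 0.023). EED rose on that scale by 0.35 as well (adjusted p = 0.048). The EZH1 call was lost without library 1, 3, 7 or 9 (adjusted p up to 0.085), and the EED call without any 1 of 10 of the libraries, those other than 11 and 12 (up to 0.14). Within WT_01 the log2 ratio of EZH2 to EZH1 counts was -1.35, -1.48 and -1.45, and in WT_10 it was -0.51, -0.60 and -1.72, so that library 3 lay beyond the low-serum libraries.

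The highest values in WT cells on the ERCC scale were those of PHF8 (-0.54), a lysine 9 and lysine 20 demethylase, and of SETD1B (-0.60), a lysine 4 methyltransferase. Neither was called on that scale, and both rose relative to the other genes. SETD1B was at 51.0, 55.5 and 47.2 CPM in WT_10 and at 76.5, 69.5 and 66.6 CPM in WT_01, and its log2 fold change on the gene scale was 0.38 ± 0.11 (adjusted p = 0.0029). PHF8 was at 21.5, 21.5 and 21.1 CPM in WT_10 and at 34.0, 29.2 and 29.3 CPM in WT_01, or 0.44 ± 0.13 on the log2 gene scale (adjusted p = 0.0051, and 0.053 without library 7). KDM4B, a demethylase of lysine 9 and 36, moved the other way: it was at 93.1, 85.1 and 93.2 CPM in WT_10 and at 70.2, 72.8 and 58.9 CPM in WT_01. It fell on both scales, by 1.46 on the ERCC scale (adjusted p = 0.011) and by 0.51 relative to the other genes (adjusted p = 0.00012).

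On the gene scale 4 members rose in WT cells (EED, EZH1, PHF8 and SETD1B) and 2 fell (KDM4B and NSD1), against 16% and 16.6% of all genes called higher and lower. Of the 48 genes, 4 changed by more than 0.5 on the log2 scale in either direction, against 29.1% of all genes. In 9 of the 48 the WT_01 libraries lay above and in 5 below all WT_10 libraries, against 24.7% and 23.7% of all genes.

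In ΔLEO1 cells, 20 of the 48 genes fell in 0.1% serum on the ERCC scale and none rose, against 47.2% and 0.975% of all genes. The quasi-likelihood test called 14 lower and none higher, against 36.4% and 0.793%. In 16 members the Leo1_01 libraries lay below all Leo1_10 libraries and in none above, against 50.9% and 0.846% of all genes. The median of the 48 was -0.99 against -1.05 for all genes. Of the 20, 12 were also among the 17 called in WT cells, which is 60% of the former and 70.6% of the latter. They were DNMT1, DNMT3B, UHRF1, SUV39H1, SETDB2, SUZ12, CBX1, NSD1, NSD2, DOT1L, KDM5A and KDM5B. DAXX, KDM1A and TRIM28 were called lower in ΔLEO1 cells on the ERCC scale but had values just above 0 on the gene scale (0.08, 0.12 and 0.01). No member stayed called when each library was left out in turn: without library 12 all 48 were called lower, and without library 10 none was. Of all genes, 11651 of 13174 were called lower without library 12 and 641 of 13193 without library 10.

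DNMT3B had the largest fall in ΔLEO1 cells. Its ERCC-scaled counts were 436, 360 and 259 in Leo1_10 and 49.98, 46.96 and 162 in Leo1_01. The groups did not overlap, and the gene was at -2.05 ± 0.52 on the log2 scale, with an adjusted p of 0.0029. DNMT3B fell relative to the other genes too, by 1.01 on the log2 scale (SE 0.23, adjusted p = 0.00014), a call that held with each library left out. SUV39H1 and SUV39H2 fell by 1.57 and 1.48 on the ERCC scale (adjusted p = 0.013 and 0.018). Their gene-scale values were -0.53 and -0.30, neither called. KDM5B, a lysine 4 demethylase, fell on both scales (log2 fold changes -1.38 and -0.34, adjusted p = 0.016 and 0.0069), the gene-scale call being lost without library 11 (adjusted p = 0.055).

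**Figure D2:**
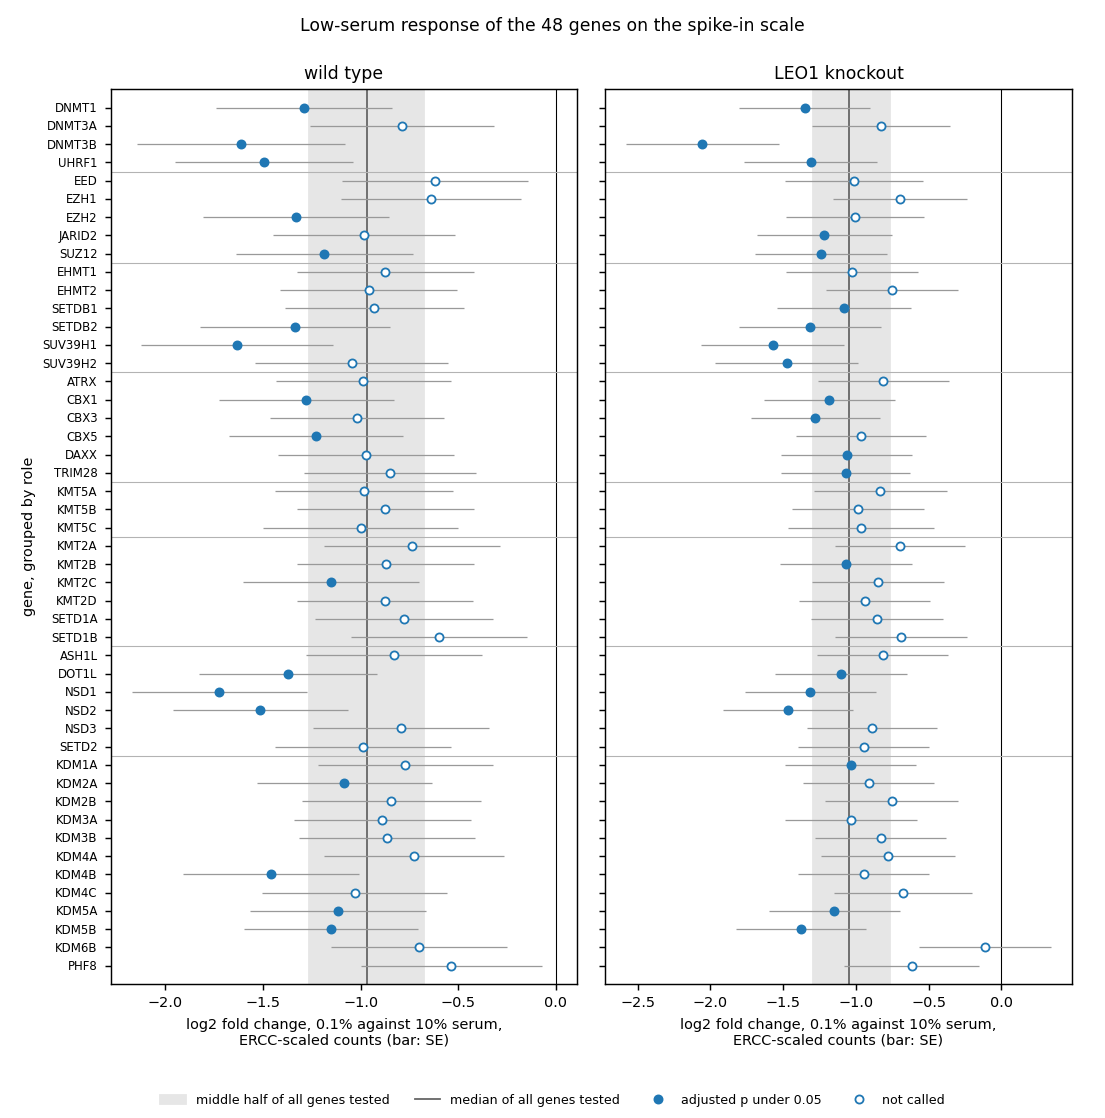
Log2 fold change for 0.1% against 10% serum on the ERCC scale (horizontal axis, bars are SE) of each of the 48 genes (vertical axis, grouped by role) in wild-type and ΔLEO1 cells, with the median and the middle quartiles of all genes tested. All points lie below 0; 17 in wild-type and 20 in ΔLEO1 cells are called, and KDM6B in ΔLEO1 cells lies nearest to 0 at -0.11.

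KDM6B, which removes methyl groups from lysine 27 of H3, lay at the other end. Its CPM were 41.1, 42.1 and 49.7 in Leo1_10 and 63.5, 67.3 and 111 in Leo1_01, and its ERCC-scale value was -0.11 ± 0.45 (adjusted p = 0.82). Relative to the other genes it rose by 0.79 (SE 0.18, adjusted p = 0.00013), with all 3 low-serum libraries above all 3 in 10% serum. The call held with each library left out, at 0.53 to 0.91. In WT cells KDM6B was at 51.2, 53.4 and 54.9 CPM in 10% serum and at 69.3, 62.5 and 73.8 CPM in 0.1% serum, which was not called (gene-scale log2 fold change 0.28, adjusted p = 0.23). SETD1B (0.35), KDM4C (0.35), KDM2B (0.34) and PHF8 (0.36) also rose on the gene scale in ΔLEO1 cells. Each of these 4 calls was lost without library 4 and without library 5, with adjusted p up to 0.15 over all libraries left out. In all, 5 members rose and 2 fell on this scale, against 16.5% and 12.9% of all genes. In 9 members the Leo1_01 libraries lay above and in 5 below all Leo1_10 libraries, against 22.2% and 21%.

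The WT and ΔLEO1 serum comparisons share no library. In gene-scale values, 33 of the 48 genes (68.8%) had the same sign in both, and 76.9% of all genes did. Across the 48 genes Pearson's r between the 2 sets of log2 fold changes was 0.701, and across all 13236 genes it was 0.743; genes are not independent replicates. SETD1B and PHF8 were called in both on the gene scale, and both rose.

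For ΔLEO1 against WT cells, no member was called on the ERCC scale in either serum by edgeR's likelihood ratio test. In 10% serum 4.64% of all genes were called lower and 4.2% higher, and in 0.1% serum 3.59% and 3.85%. The quasi-likelihood test called 0 members as well, against 4.2% of all genes lower and 3.81% higher in 10% serum, and 3.41% and 3.49% in 0.1% serum. At an unadjusted p under 0.05 there were 3 members in 10% serum and 0 in 0.1% serum, against 2251 and 1889 of the 13236 genes. DESeq2 with spike-in size factors also called 0 members in each. Of all genes it called 590 lower and 580 higher in 10% serum, and 452 and 488 in 0.1% serum. The SE of a member on this scale was between 0.44 and 0.52 in 10% serum, so a difference of that size lay within 1 SE. The median of the members was 0.33 in 10% serum and 0.32 in 0.1% serum, against 0.35 and 0.27 for all genes. In 7 members the Leo1_10 libraries lay above all WT_10 libraries on the ERCC scale, against 23.7% of all genes, and in none below, against 6.94%. In 0.1% serum no member's groups were apart in either direction, against 4.83% of all genes below and 4.64% above.

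Relative to the other genes, 11 members differed in 10% serum: DNMT3B, CBX3, TRIM28 and KMT5B were higher and DNMT3A, CBX5, SETD2, ASH1L, KDM2A, KDM4B and KDM4C lower in ΔLEO1 cells. The shares of all genes called on the gene scale were 17.7% higher and 21.8% lower. In 0.1% serum 6 members differed, CBX3, TRIM28 and KMT5B being higher and DNMT3A, CBX5 and ASH1L lower, against 15.4% and 17.6% of all genes. All 6 were among the 11 of 10% serum and had the same direction there. With the alike libraries of each group summed as 1, fewer members were called in each serum, as given in the last section. Of all genes 1099 were then higher and 1727 lower in 10% serum, and 843 and 1304 in 0.1% serum. With spike-in scaling the members named as lower lay between -0.55 and 0.00 in 10% serum. Since the shares are below or near those of all genes, these members are described one by one and not as a change of the list.

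**Figure D3:**
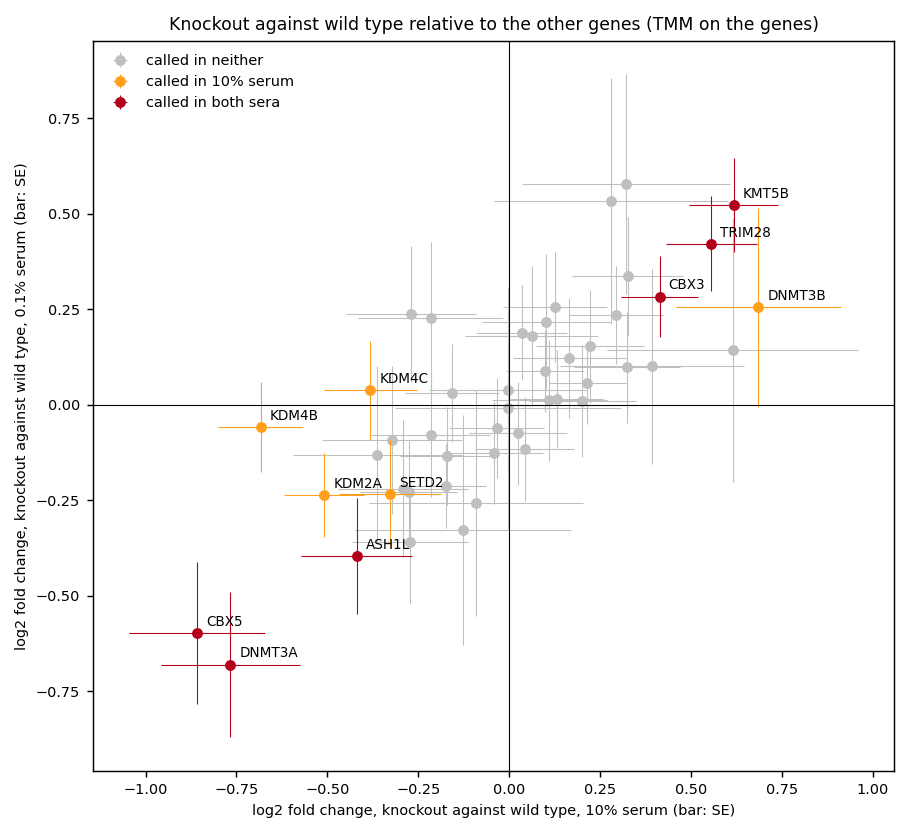
Log2 fold change of ΔLEO1 against wild-type cells relative to the other genes in 10% serum (horizontal axis) and in 0.1% serum (vertical axis) for the 48 genes; bars are SE and colours give the call. CBX5 and DNMT3A lie lowest in both sera, and KMT5B, TRIM28 and CBX3 are called higher in both.

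CBX5, which encodes HP1 alpha (chromosome 12, 54230940 to 54280133, minus strand, GRCh38), had the lowest value of the 48 genes in 10% serum on both scales. It was at 219, 214 and 138 CPM in WT_10 and at 114, 120 and 83.0 CPM in Leo1_10. In 0.1% serum it was at 182, 164 and 190 CPM in WT_01 and at 113, 108 and 129 CPM in Leo1_01. Within each serum every ΔLEO1 library lay below every WT library. Relative to the other genes the log2 fold change was -0.86 ± 0.19 in 10% serum and -0.60 ± 0.19 in 0.1% serum, with adjusted p of 3.1e-05 and 0.0063, and both calls held with each library left out. Its ERCC-scale values were -0.55 and -0.28, neither called. CBX5 was among the genes that were low in library 3. In the highest-numbered libraries of WT_10, Leo1_10, WT_01 and Leo1_01 it was at 138, 83.0, 190 and 129 CPM. Whether its level goes with that of the proliferation markers was not tested.

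CBX3, which encodes HP1 gamma (chromosome 7, 26201162 to 26213356, plus strand), went the other way. It was at 146, 139 and 133 CPM in WT_10 and at 192, 193 and 175 CPM in Leo1_10, then at 138, 151 and 140 CPM in WT_01 and at 165, 183 and 167 CPM in Leo1_01. The groups did not overlap in either serum. CBX3 rose relative to the other genes by 0.41 ± 0.11 in 10% serum and by 0.28 ± 0.11 in 0.1% serum, with adjusted p of 0.00045 and 0.026. The call in 0.1% serum was lost without library 7, 9, 10 or 11 (adjusted p up to 0.14). CBX1, which encodes HP1 beta, was at 98.8, 95.6 and 79.8 CPM in WT_10 and at 101, 101 and 80.9 CPM in Leo1_10, and was called in neither serum (gene-scale log2 fold changes 0.03 and 0.19). Of the 58-base stretches of the longest CBX3 transcript, 8.06% also occur in another annotated gene, chiefly CBX3 pseudogenes, and 7.93% of its exon bases overlap exons of HNRNPA2B1 on the other strand. For CBX5 the shared share is 0.75%.

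The balance of the HP1 genes within a library does not depend on the scale. The log2 ratio of CBX5 to CBX3 counts was 0.59, 0.63 and 0.05 in WT_10 and 0.40, 0.12 and 0.44 in WT_01. In Leo1_10 it was -0.75, -0.69 and -1.08, and in Leo1_01 it was -0.55, -0.75 and -0.37. The 6 WT libraries all lay above 0 and the 6 ΔLEO1 libraries all below. Per kilobase, CBX5 made up 13.7% ± 2.2 (SD, n = 3) of the summed level of the 3 HP1 genes in WT_10 and 13.4% ± 1.1 in WT_01, but 6.71% ± 0.75 in Leo1_10 and 7.90% ± 0.78 in Leo1_01. CBX3 made up 54.8% ± 3.0 in WT_10 and 64.7% ± 1.9 in Leo1_10.

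DNMT3A, a de novo DNA methyltransferase (chromosome 2, 25227855 to 25342590, minus strand), was lower in ΔLEO1 cells relative to the other genes in both sera. It was at 20.8, 20.1 and 17.4 CPM in WT_10 and at 10.9, 10.9 and 12.7 CPM in Leo1_10, that is -0.77 ± 0.19 on the log2 gene scale, adjusted p = 0.00033. In 0.1% serum it was at 26.2, 23.7 and 20.8 CPM in WT_01 and at 10.5, 18.6 and 14.7 CPM in Leo1_01, that is -0.68 ± 0.19, adjusted p = 0.0020. The groups did not overlap in either serum, and both calls held with each library left out. With spike-in scaling DNMT3A was at -0.46 and -0.49, neither called.

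DNMT3B (chromosome 20, 32762385 to 32809356, plus strand), the other de novo enzyme, was higher in ΔLEO1 cells in 10% serum. It was at 1.95, 1.84 and 1.35 CPM in WT_10 and at 2.76, 3.09 and 2.45 CPM in Leo1_10, with a gene-scale log2 fold change of 0.69 ± 0.23 (adjusted p = 0.0082). The call was lost without library 3 or library 5 (adjusted p up to 0.063). In 0.1% serum the CPM were 1.19, 1.18 and 1.254 in WT_01 and 0.949, 1.57 and 1.78 in Leo1_01, which overlap and were not called (0.25, adjusted p = 0.49). The log2 ratio of DNMT3A to DNMT3B counts within a library was 3.52 ± 0.14 in WT_10 and 2.05 ± 0.28 in Leo1_10 (SD, n = 3), and 4.28 ± 0.21 in WT_01 and 3.36 ± 0.28 in Leo1_01. The genotypes did not overlap in either serum. DNMT1 and UHRF1 were called in neither serum; DNMT1 was at 81.2, 80.5 and 55.2 CPM in WT_10 and at 84.1, 91.0 and 69.6 CPM in Leo1_10.

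**Figure D4:**
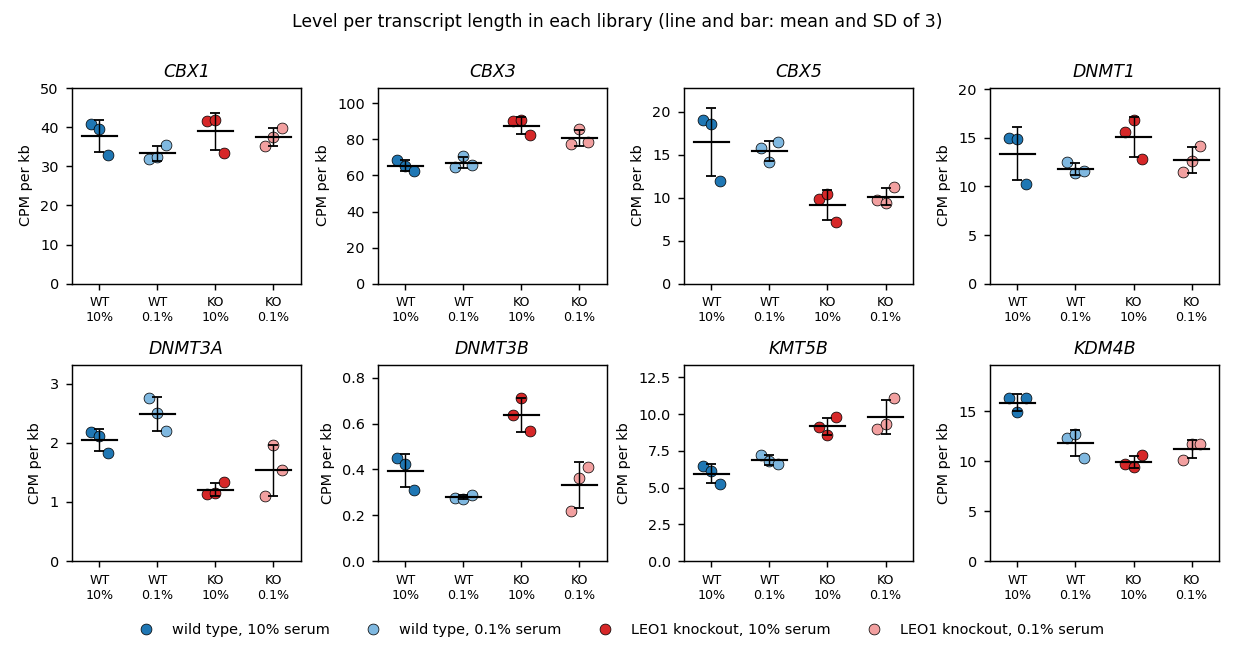
CPM per kilobase of transcript (vertical axes, from 0) of 8 of the genes in each library, by genotype (WT, or KO for ΔLEO1) and serum; lines and bars are mean and SD of 3. CBX5 and DNMT3A are lower and CBX3 and KMT5B higher in ΔLEO1 cells in both sera, while DNMT3B and KDM4B separate the genotypes in 10% serum.

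KMT5B, a methyltransferase for lysine 20 of histone H4 (chromosome 11, 68154863 to 68213828, minus strand), was at 37.8, 35.9 and 30.4 CPM in WT_10 and at 53.3, 50.2 and 57.1 CPM in Leo1_10. In 0.1% serum it was at 42.3, 39.6 and 38.7 CPM in WT_01 and at 52.4, 54.3 and 64.9 CPM in Leo1_01. The groups did not overlap in either serum. KMT5B rose relative to the other genes by 0.62 ± 0.12 in 10% serum and by 0.52 ± 0.12 in 0.1% serum, with adjusted p of 4.4e-06 and 0.00018, and both calls held with each library left out. With spike-in scaling it was at 0.93 and 0.82, among the 3 highest members in each serum, and not called. Its ERCC-scaled counts in 0.1% serum were 1979, 2389 and 1443 in WT_01 and 2758, 1626 and 5885 in Leo1_01, which overlap. Library 12 was the highest of the 6, and without it the KMT5B value was 0.18. The other lysine 20 methyltransferases, KMT5A and KMT5C, were not called and lay below 0 on the gene scale in both sera (-0.29 and -0.09 in 10% serum, -0.22 and -0.26 in 0.1% serum). The log2 ratio of KMT5B to KMT5A counts was -0.22 ± 0.08 in WT_10 and 0.69 ± 0.11 in Leo1_10, and -0.11 ± 0.33 in WT_01 and 0.64 ± 0.22 in Leo1_01 (SD, n = 3), again without overlap of the genotypes in either serum. Of the 58-base stretches of KMT5A, 20.4% also occur in another annotated gene, so that ratio is less certain. The log2 ratio of KMT5B to KMT5C counts was 2.74, 2.72 and 2.67 in WT_10 and 3.54, 3.38 and 3.34 in Leo1_10, with no overlap. In 0.1% serum it was 3.22, 2.92 and 2.36 in WT_01 and 4.01, 3.90 and 3.09 in Leo1_01, and the genotypes overlapped.

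TRIM28 (chromosome 19, 58544091 to 58550722, plus strand) was at 241, 256 and 206 CPM in WT_10 and at 365, 373 and 301 CPM in Leo1_10, and at 267, 277 and 282 CPM in WT_01 and at 373, 354 and 364 CPM in Leo1_01. All ΔLEO1 libraries lay above all WT libraries. Its gene-scale log2 fold change was 0.56 ± 0.12 in 10% serum and 0.42 ± 0.12 in 0.1% serum, with adjusted p of 5.7e-05 and 0.0038. SETDB1, the methyltransferase that TRIM28 recruits, was at 0.04 and -0.12 on that scale, and ATRX and DAXX, which deposit histone H3.3 in heterochromatin, were not called. None of the 6 lysine 9 methyltransferases was called between genotypes on either scale, and their gene-scale values lay between -0.33 and 0.39. For SUV39H1 the CPM were 11.1, 10.9 and 5.202 in WT_10 against 9.64, 11.3 and 6.46 in Leo1_10. For SUV39H2 they were 8.20, 7.45 and 4.95 against 10.6, 10.8 and 5.78. The genotypes overlapped in both genes.

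**Figure D5:**
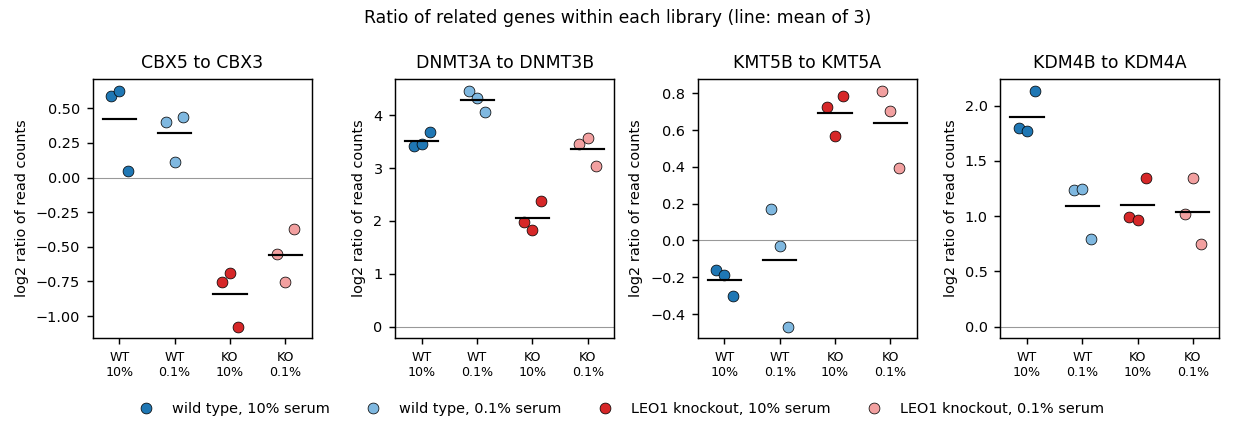
Log2 ratio of read counts of related genes within each library (points; lines are means of 3) by genotype (WT, or KO for ΔLEO1) and serum. CBX5 to CBX3 is above 0 in all wild-type and below 0 in all ΔLEO1 libraries, and KDM4B to KDM4A is highest in wild-type cells in 10% serum.

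Of the demethylases, KDM4B, KDM2A and KDM4C were lower in ΔLEO1 cells in 10% serum on the gene scale. KDM4B (chromosome 19, 4969113 to 5153595, plus strand) was at 55.6, 53.8 and 60.4 CPM in Leo1_10, below the 85.1 to 93.2 CPM of WT_10, or -0.68 ± 0.12 on the log2 gene scale (adjusted p = 5.9e-08). In 0.1% serum it was at 57.9, 66.7 and 67.0 CPM in Leo1_01 and between 58.9 and 72.8 CPM in WT_01, and the groups overlapped (log2 fold change -0.06, adjusted p = 0.75). KDM2A, a lysine 36 demethylase that binds CpG islands, was at 111, 104 and 110 CPM in WT_10 and at 74.3, 75.8 and 79.9 CPM in Leo1_10 (log2 fold change -0.51 ± 0.11, adjusted p = 2.9e-05), and was not called in 0.1% serum (-0.24, adjusted p = 0.087). KDM4C was at 16.8, 16.5 and 17.2 CPM in WT_10 and at 12.4, 12.4 and 14.1 CPM in Leo1_10, or -0.38 on the log2 gene scale (adjusted p = 0.010, and 0.070 without library 4 or library 5). KDM4A lay at 0.11 and 0.01 in the 2 sera and was not called. Of its 58-base stretches, 44.5% also occur in another annotated gene, so its counts are less certain.

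The marks of the lysine 4, lysine 36 and lysine 79 methyltransferases accompany transcription. In 10% serum the gene-scale medians were -0.22 for the 6 lysine 4 enzymes and -0.27 for the 6 lysine 36 and 79 enzymes, against 0.00 for all genes, and in 0.1% serum they were -0.15 and -0.10, against 0.02. The ERCC-scale medians were above 0, at 0.11 and 0.08 in 10% serum against 0.35 for all genes, and at 0.20 and 0.31 in 0.1% serum against 0.27. None of the lysine 4 enzymes was called. ASH1L, a lysine 36 methyltransferase, was lower in both sera, by 0.42 and 0.40 (adjusted p = 0.018 and 0.032). It was at 98.9, 93.3 and 91.0 CPM in WT_10 and at 68.1, 68.8 and 75.9 CPM in Leo1_10. In 0.1% serum library 12, at 102 CPM, lay within the WT_01 range of 91.7 to 130 CPM, and the call was lost without library 5, 7, 8, 10 or 11 (adjusted p up to 0.22). In 10% serum it was lost without library 1, 2, 4 or 5 (up to 0.090).

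SETD2, which trimethylates lysine 36 behind RNA polymerase II, lies at 3p21 (chromosome 3, 47016429 to 47163967, minus strand). It was at 95.4, 88.5 and 88.1 CPM in WT_10 and at 71.0, 70.6 and 76.0 CPM in Leo1_10, with a gene-scale log2 fold change of -0.33 ± 0.14 (adjusted p = 0.049), a call lost without any 1 of 8 of the libraries, those other than 7, 9, 10 and 12. In 0.1% serum it was at 107, 98.6 and 76.9 CPM in WT_01 and at 66.8, 79.3 and 92.3 CPM in Leo1_01 (-0.23, adjusted p = 0.20). SETD2 on the ERCC scale was at 0.00 and 0.04. The 50 tested genes within 2 Mb of it had a median of -0.30 in 10% serum, and 41 of the 50 were below 0. From 46 to 53 Mb of chromosome 3, which lies in 3p21, the 113 tested genes had a median of -0.37 in 10% and -0.23 in 0.1% serum. The neighbours of CBX5 within 2 Mb (71 genes) had a median of -0.13 in both sera, and those of DNMT3A (34 genes) medians of -0.13 and -0.08. For the raised members, the neighbours of TRIM28 (64 genes) had medians of 0.26 and -0.01, with 48 of the 64 above 0 in 10% serum. Those of CBX3 (25 genes) had medians of 0.08 and -0.05, and those of KMT5B (64 genes) of -0.05 and 0.00. Whether the values of these members and of their neighbours are linked was not tested.

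The 2 genotype comparisons share no library. In gene-scale values, 41 of the 48 genes (85.4%) had the same sign in both sera, as did 79.7% of all genes, and Pearson's r was 0.775 across the 48 genes and 0.886 across all genes. Members that differed by more than 0.5 on the log2 scale numbered 8 of 48 in 10% serum and 5 of 48 in 0.1% serum, against 33.1% and 28.4% of all genes. In 15 members the Leo1_10 libraries lay below and in 13 above all WT_10 libraries on this scale, against 30.1% and 29.2% of all genes. In 0.1% serum these counts were 4 and 6, against 21.7% and 20.5%. EZH2 and UHRF1, the highest members beside KMT5B on the ERCC scale in 0.1% serum (0.91 and 0.76), were not called on either scale. Without library 12 the EZH2 value was 0.18 and the UHRF1 value 0.33. EZH2 was at 11.8, 10.3 and 11.6 CPM in WT_01 and at 13.8, 16.4 and 19.9 CPM in Leo1_01, and UHRF1 at 42.2, 44.2 and 39.8 CPM in Leo1_01 against 28.8 to 30.3 CPM in WT_01. In CPM neither pair of groups overlapped. In the same comparison 12 of 12 proliferation markers were above 0 on the ERCC scale (median 0.72) and 11 of 12 on the gene scale (median 0.35), none of them called on either scale, and their part in the result was not tested. JARID2, second highest in 10% serum on the ERCC scale (0.98), was at 15.6, 15.9 and 18.3 CPM in WT_10 and at 24.7, 23.9 and 27.9 CPM in Leo1_10. Its groups did not overlap, but its level in the 0.1% serum libraries ranged from 12.8 to 32.7 CPM, and its gene-scale value of 0.61 was not called (adjusted p = 0.15).

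No member was called in the genotype by serum interaction on the ERCC scale, and no member had an unadjusted p under 0.05 there. Of all genes 0.0831% were called lower and 0.136% higher, and 330 of 13236 had an unadjusted p under 0.05. The quasi-likelihood test also called 0 members, against 0.0604% of all genes lower and 0.113% higher. The largest value was that of KDM6B (0.59 ± 0.64) and the smallest that of DNMT3B (-0.44 ± 0.75). On the gene scale KDM4B alone was called, at 0.62 ± 0.17 (adjusted p = 0.0078), against 3.06% of all genes called higher and 1.02% lower. It was lower in 0.1% serum in WT cells and was not called in ΔLEO1 cells (0.11, adjusted p = 0.51), where it was at 53.8 to 60.4 CPM in 10% serum and at 57.9 to 67.0 CPM in 0.1% serum. The log2 ratio of KDM4B to KDM4A counts was 1.90 ± 0.20 in WT_10 and between 1.04 and 1.10 on average in the other groups.

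The other genes of these systems were read from 6 lists of 102 genes, all of which passed the filter. On the ERCC scale 27 of the 102 fell in WT cells and 46 in ΔLEO1 cells in 0.1% serum, none rose, and the medians were -0.88 and -1.001. Of all genes 36.1% and 47.2% fell, with medians of -0.97 and -1.05. By list, 4 and 8 of 14 TET and methyl-CpG proteins fell in WT and ΔLEO1 cells, 6 and 9 of 24 other polycomb subunits, 5 and 7 of 21 other lysine 9 and heterochromatin proteins, 2 and 6 of 12 COMPASS subunits, 4 and 6 of 13 other demethylases, and 6 and 10 of 18 other lysine and arginine methyltransferases. Between genotypes only HR, a lysine 9 demethylase of the hair follicle, was called on the ERCC scale. It was at 9.95, 8.99 and 2.57 CPM in WT_01 and at 2.85, 2.55 and 0.680 CPM in Leo1_01 (log2 fold change -1.93 ± 0.51, adjusted p = 0.0043). The groups overlap, and the call was lost without library 7 or library 8 (adjusted p up to 0.11). On the gene scale 13 of the 102 were lower and 19 higher in ΔLEO1 cells in 10% serum, against 21.8% and 17.7% of all genes, and 16 and 10 in 0.1% serum, against 17.6% and 15.4%. TASOR, a subunit of the HUSH complex, which silences through lysine 9 methylation, was chosen from these after its values were seen. It was at 102, 99.5 and 90.6 CPM in WT_10 and at 36.8, 39.4 and 39.3 CPM in Leo1_10, with a gene-scale log2 fold change of -1.35 in 10% serum and -0.99 in 0.1% serum. TASOR had the lowest gene-scale values of the 21 other lysine 9 and heterochromatin proteins. Of these 21 genes, 1 was called lower and 4 higher on the gene scale in 10% serum, and 2 and 2 in 0.1% serum. Their medians were 0.06 and 0.07, and none was called on the ERCC scale between genotypes.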

How the data were processed

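Poly(A) RNA of BJ-5ta cells was sequenced as paired-end reads from 12 libraries prepared with a stranded kit. Per the submitters' processing notes, reads were demultiplexed with bcl2fastq 2.20.0.422, aligned to GRCh38 and the ERCC sequences with STAR 2.7.10a (the study's methods name another STAR release) and counted in annotated exons with featureCounts 1.5.1. The strand setting of the counting is not given in the sources used here, so reads of a gene and of an overlapping antisense gene may not be told apart. The deposited values are whole-number counts per Ensembl gene and per ERCC transcript, not normalized by the authors.

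The 48 genes, the related lists and the groups of paralogs were chosen with earlier results of these data known. Symbols were matched to Ensembl identifiers through a gene name table, and coordinates were taken from GENCODE v29. Genes with more than 1 CPM in at least 3 libraries were tested in edgeR 4.0.16 (R 4.3.3) with all 12 libraries and 4 groups in 1 fit, using the likelihood ratio test, two-sided, with Benjamini-Hochberg adjustment over the 13236 genes and a threshold of 0.05. The library size was the ERCC total times the TMM factor of the ERCC transcripts, after the study's methods. The quasi-likelihood test, DESeq2 1.42.0, TMM on the genes and other settings were alternatives. The biological coefficient of variation was 39.8% on the ERCC scale and 16.6% with TMM on the genes. The ERCC share of each library was 0.625% to 3.24%, with a 95% Wilson interval of the share at most 0.012 percentage points wide. This covers counting error only. Levels per kilobase use the longest protein-coding transcript. Genes chosen for description were, in each group comparison, the 3 members with the highest and the 3 with the lowest ERCC-scale log2 fold change. Those called or most extreme in the interaction, the paralog groups of DNMT1, EZH1, SUV39H1 and CBX1, and SETD2 were chosen too. Library values are printed for most of these genes, but not for each gene in every group. The members called on the gene scale were added after their values were seen. The fit was also run on simulated counts with known changes, drawn independently for each library. These had no alike libraries and no error in the spike-in scaling, so no conclusion about the calls is drawn from them.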

Additional observations from a re-analysis of the deposited data

Results flagged for a closer look

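Groups of 3 libraries are too small for a test of a single library that stands apart, so none was made. The serum response differed between the genotypes, by the test of that difference, in 2 of the 48 members and 102 related genes, both on the gene scale alone, where 3.06% of all genes were called higher and 1.02% lower. KDM4B had an interaction log2 fold change of 0.62 (edgeR likelihood ratio test, adjusted p = 0.0078, quasi-likelihood adjusted p = 0.038), which stayed called with each library left out (0.54 to 0.68). SMYD2, a lysine methyltransferase of the related lists, had an interaction log2 fold change of 0.53 (edgeR adjusted p = 0.040). It was not called by the quasi-likelihood test (adjusted p = 0.055) and lost the call with any 1 of 9 of the libraries left out (adjusted p up to 0.16). SMYD2 was at 25.6, 27.5 and 24.8 CPM in WT_10, 16.4, 16.1 and 16.8 CPM in WT_01, 23.9, 25.3 and 21.02 CPM in Leo1_10, and 19.5, 20.9 and 22.7 CPM in Leo1_01. With spike-in scaling neither gene was called in the interaction (0.51 and 0.46).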

How the results depend on the processing

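Counts are members called in the serum comparison of WT cells, the serum comparison of ΔLEO1 cells, the genotype comparison in 10% serum, that in 0.1% serum and the interaction, in this order; 17, 20, 0, 0 and 0 were reported. For the 102 related genes the reported counts were 27, 46, 0, 1 and 0. With TMM on the genes the counts were 6, 7, 11, 6 and 1 (related genes 17, 32, 26 and 1, leaving out WT serum), and with DESeq2 size factors on the genes 6, 7, 11, 6 and 1 (related 18, 35, 26 and 1). TMM with the quasi-likelihood test gave 6, 7, 13, 6 and 1 (related 16, 36 and 27), and TMM with the highest-numbered library as covariate 7, 8, 15, 8 and 1 (related 25, 40, 29 and 3). With spike-in scaling this covariate gave 10 members in ΔLEO1 cells (related 17 and 26 in the serum comparisons). Of all genes, 4257 were then lower in ΔLEO1 cells. DESeq2 size factors called 2139, 2190, 2418, 2067 and 393 of all genes higher and 2171, 1704, 2814, 2299 and 135 lower. TMM with the quasi-likelihood test called 2047, 2055, 2371, 2004 and 205 higher and 2127, 1604, 2834, 2289 and 60 lower. With TMM and the covariate 2416, 2425, 2667, 2358 and 626 were higher and 2483, 2015, 3147, 2580 and 219 lower. Without a filter on low counts 9 and 9 members were called in the serum comparisons (related 10 and 17), at a threshold of 0.01 4 and 1 (related 5 and 4), and with only the 6 libraries compared 41 and 3 (related 68 and 5, and 6 in the genotype comparison in 10% serum). Of all genes, 3395 and 4300 of 32285 were called lower in the serum comparisons without the filter. With only the 6 libraries compared, 8408 of 12724 and 1651 of 12542 were. For the threshold of 0.01 the share of all genes is not given here. The quasi-likelihood test called 15 related genes in WT cells. Without the highest-numbered library of each group the counts were 45 and 48 in the serum comparisons and 5 in the genotype comparison in 0.1% serum (related 76, 100, 5 and 12), and with TMM as well 26 in WT serum, 30 and 31 between genotypes and 10 in the interaction (related 60, 65, 66 and 23). Of all 12911 genes, 9343 and 12020 were then lower in the serum comparisons with spike-in scaling. Between genotypes in 0.1% serum 2047 were lower and 328 higher on that scale. With TMM 3609 were higher and 3974 lower in WT serum. Between genotypes TMM called 3998 and 4015 higher and 4206 and 3848 lower. In the interaction it called 2256 higher and 1290 lower. The labels do not say that the 2 lowest-numbered libraries of a group are 1 sample. With them summed as 1 the counts were 0 and 0 in the serum comparisons (related 1 and 1, and 0 in 0.1% serum between genotypes), and with TMM 1, 2, 6 and 2 (related 10, 4, 8 and 7). Of all 13236 genes, 606 and 203 were called lower in the serum comparisons with spike-in scaling. With TMM the counts of all genes called lower were 931, 582, 1727 and 1304, and of those called higher 929, 903, 1099 and 843. With each library left out in turn, the counts over both scales ranged from 1 to 41, 0 to 48, 0 to 17, 0 to 13 and 0 to 1 (related 4 to 68, 2 to 100, 0 to 39, 0 to 36 and 0 to 3). Of all genes, spike-in scaling then called 1137 to 8598 lower in WT serum and 641 to 11651 in ΔLEO1 serum. TMM called 1724 to 2717 higher and 2435 to 3180 lower between genotypes in 10% serum. In 0.1% serum these were 1499 to 2315 and 1925 to 2596, and in the interaction 269 to 603 and 81 to 234. The lowest ERCC counts came without WT_10 replicate 1 or WT_01 replicate 7 in WT cells and without Leo1_01 replicate 10 in ΔLEO1 cells, and the highest without Leo1_01 replicate 12 in both. The median member relative to the median gene moved by less than the median SE of a single member in each setting. That limit is wide for a median of 48 genes, so no conclusion is drawn from it.

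Under TMM, DESeq2 size factors, TMM with the covariate, TMM with the quasi-likelihood test and TMM without the highest-numbered libraries, the WT serum values were 0.35, 0.36, 0.35, 0.35 and 0.35 for EED, 0.38, 0.39, 0.38, 0.38 and 0.37 for SETD1B, 0.44, 0.44, 0.44, 0.44 and 0.47 for PHF8, and 0.35, 0.36, 0.35, 0.35 and 0.28 for EZH1. The ΔLEO1 serum values were 0.35, 0.35, 0.35, 0.35 and 0.38 for KDM4C, 0.36, 0.36, 0.36, 0.36 and 0.28 for PHF8, and 0.79, 0.79, 0.77, 0.79 and 0.63 for KDM6B (0.84 with libraries summed and TMM). EZH1 was at 0.30 with the covariate and 0.30 without the highest-numbered libraries, and DNMT3A at 0.39 in the latter. SETD2 between genotypes in 10% serum was at -0.33, -0.33 and -0.33 under TMM, TMM with the covariate and TMM with the quasi-likelihood test and at -0.39 without the highest-numbered libraries, with -0.45 in 0.1% serum in the latter. With each library left out, over both scales, the ranges were -0.85 to 0.38 for EED, -0.84 to 0.44 for SETD1B, -0.75 to 0.49 for PHF8 and -0.87 to 0.40 for EZH1 in WT cells. In ΔLEO1 cells they were -1.28 to 0.42 for KDM4C, -1.34 to 0.43 for PHF8, -1.05 to 0.91 for KDM6B, -1.34 to 0.38 for EZH1 and -1.74 to 0.0083 for UHRF1. For SETD2 they were -0.37 to 0.27 in 10% and -0.65 to 0.37 in 0.1% serum. Over the 62 named values and 40 settings, 1822 values kept their call or stayed uncalled, the sign of an uncalled value not being compared. Another 298 kept the direction but lost the call, and 243 became called in the same direction. The remaining 115 were called values that changed sign or values that became called in the other direction. Summing libraries, TMM with each library left out, and TMM with the quasi-likelihood test were chosen after seeing the data. No paired analysis was possible because the groups share no replicate numbers.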
